A study of Drosophila melanogaster with 6 samples.

Results

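The genes described here make, harden and colour the fly cuticle or control the late epidermis. They were the ecdysone-dependent cuticle genes Edg91, Edg84A and Edg78E, the tanning enzyme genes ple, Ddc, e, t and b, and the epidermal regulator grh, chosen by symbol. Of these 9 genes, 8 had a probe set paired with that gene alone, and grh had a pair of them, which gave 9 member probe sets among 18769 tested. The gene b, which supplies the beta-alanine used in tanning, was not analysed here.

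RNA of whole Drosophila melanogaster embryos between stages 11 and 16 was hybridised to Affymetrix arrays, 1 array per sample. The wild type group held 3 samples of the Oregon R strain. The Sage overexpression group held 3 samples in which the tub-Gal4 driver, active in most cells, drove a UAS-Sage transgene, with Oregon R named as background too. Both groups were grown at the same temperature, sorted on the same kind of instrument and described as matched in age. Sage is a helix-loop-helix transcription factor normally made in the embryonic salivary gland, and the comparison asks which genes respond when it is made throughout the embryo. The wild type embryos carried neither driver nor transgene, so effects of Sage, of the driver and of the insertions cannot be told apart. The labels do not say that replicates came from separate cultures, so p-values measure the spread between these samples, which may be technical.

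Insect cuticle is a chitin and protein layer secreted by the epidermis. It is tanned when catecholamines are oxidised and join its proteins. Tyrosine hydroxylase, encoded by ple, turns tyrosine into DOPA, and DOPA decarboxylase, encoded by Ddc, turns DOPA into dopamine. Ebony, encoded by e, couples dopamine to beta-alanine, and Tan, encoded by t, splits that conjugate again, so the pair act in opposite directions. Grainy head, encoded by grh, is an epidermal transcription factor known to activate Ddc and ple.

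In Sage overexpression 1 of the measured genes was raised, 1 was lowered and the others did not pass the threshold. Edg91 rose 2.38-fold, t fell 3.16-fold, and e and Ddc had higher means in Sage overexpression without passing. The regulator grh gave group means within 0.07 of each other on the log2 scale, and ple and Edg84A read no higher than control probe sets in either group. Values throughout are log2 array values, fold changes compare Sage overexpression with wild type, and a gene is said to have risen or fallen where limma's adjusted p was under 0.05.

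Across all tested probe sets 608 rose (3.24%) and 541 fell (2.88%), together 6.12%, against 2 of the 9 member probe sets. The balance of directions turned to 536 rises and 619 falls with each array centred on its median, and to 341 and 427 without wild type array 1. The groups did not overlap for 4 of the 9, against 27.6% of all probe sets. The median log2 fold change was 0.15 over the members and 0.00053 over all probe sets, and 5 of the 9 member values were above 0. With so few members these shares describe the genes and test nothing about them as a list. Sage itself was 23.1-fold higher in the Sage samples (adjusted p 7.5e-05), the group means being 7.72 ± 0.34 and 12.25 ± 0.07 (SD, n = 3 each). Arrays correlated at 0.9745 to 0.994 within wild type and 0.989 to 0.996 within Sage overexpression. The 70 controls taken to lack a fly target reached group means between 3.23 and 5.35, a range used below as the background. At the 5′ ends of the actin, GAPDH and eIF-4a control transcripts the log2 differences were -1.38, -1.21 and -1.21, against -0.09, -0.38 and -0.39 at the 3′ ends. The part of RNA quality or labelling in the results below was not tested. Arrays of whole embryos also cannot tell fewer cells of a type from less RNA per cell.

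**Figure D1:**
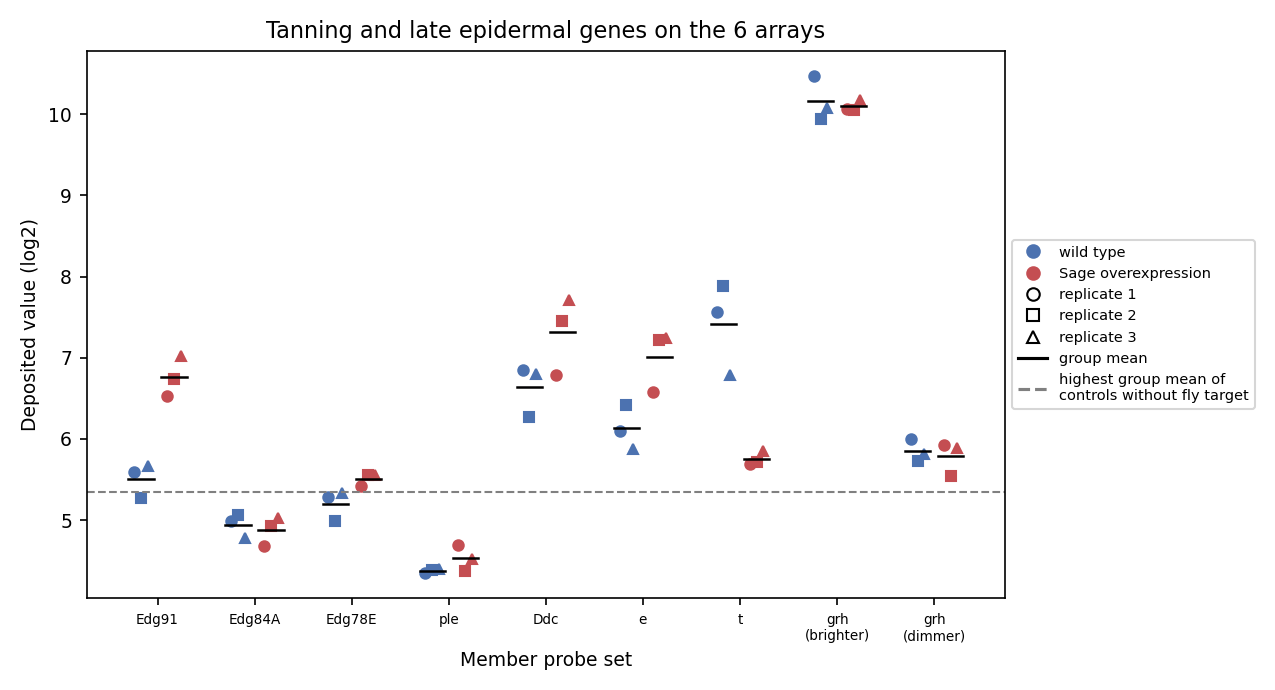
Log2 value of each member probe set on the 6 arrays, with wild type in blue, Sage overexpression in red, symbols for the replicate number and bars for group means. The groups separate for Edg91, Edg78E, e and t, and ple and Edg84A lie under the dashed line at 5.35, the highest group mean among controls without a fly target.

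Edg91 encodes a glycine-rich cuticle protein first found as a gene that imaginal discs switch on after an ecdysone pulse. Its wild type values were 5.60, 5.27 and 5.67 on arrays 1 to 3, and its Sage overexpression values were 6.52, 6.74 and 7.03 (means 5.51 ± 0.21 and 6.76 ± 0.25, SD, n = 3). All Sage arrays lay above all wild type arrays. The log2 fold change was 1.25 (SE 0.17, 95% interval 0.85 to 1.65), with a limma adjusted p of 0.010. Taken by replicate number, the differences were 0.93, 1.47 and 1.35. The wild type mean was only slightly above the background, and wild type array 2 lay inside it, so the fold may understate the change. Among the 608 raised probe sets 180 rose by at least as much. The call was lost without Sage array 2 (adjusted p 0.055) and was kept in the other fits that left out 1 array.

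Edg78E encodes a chitin-binding cuticle protein of the Cpr kind. It read 5.29, 4.99 and 5.33 in wild type, inside the background, and 5.41, 5.56 and 5.56 in Sage overexpression, just above it. The groups did not overlap, but the separation was small. The log2 fold change was 0.31 (SE 0.12, 95% interval 0.03 to 0.59) and did not pass (limma adjusted p 0.19).

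Edg84A encodes a further cuticle protein of that kind, known as a target of the nuclear receptor FTZ-F1 in prepupae. It read 4.99, 5.06 and 4.77 in wild type and 4.67, 4.92 and 5.02 in Sage overexpression, all inside the background. No fold is given, since neither group stood above the controls. The log2 difference was -0.07 (95% interval -0.37 to 0.24, limma adjusted p 0.84), and the groups overlapped.

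Within each array, the Edg91 value minus the Edg84A value was 0.61, 0.21 and 0.90 in wild type and 1.85, 1.82 and 2.0 in Sage overexpression, a shift of 1.32. Edg91 minus Edg78E was 0.31, 0.28 and 0.34 in wild type and 1.11, 1.18 and 1.46 in Sage overexpression, a shift of 0.94. In both differences every Sage array exceeded every wild type array. Edg84A in both groups and Edg78E in wild type lay in the background, so these shifts largely restate the rise of Edg91 and do not show that the 3 genes changed unequally.

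**Figure D2:**
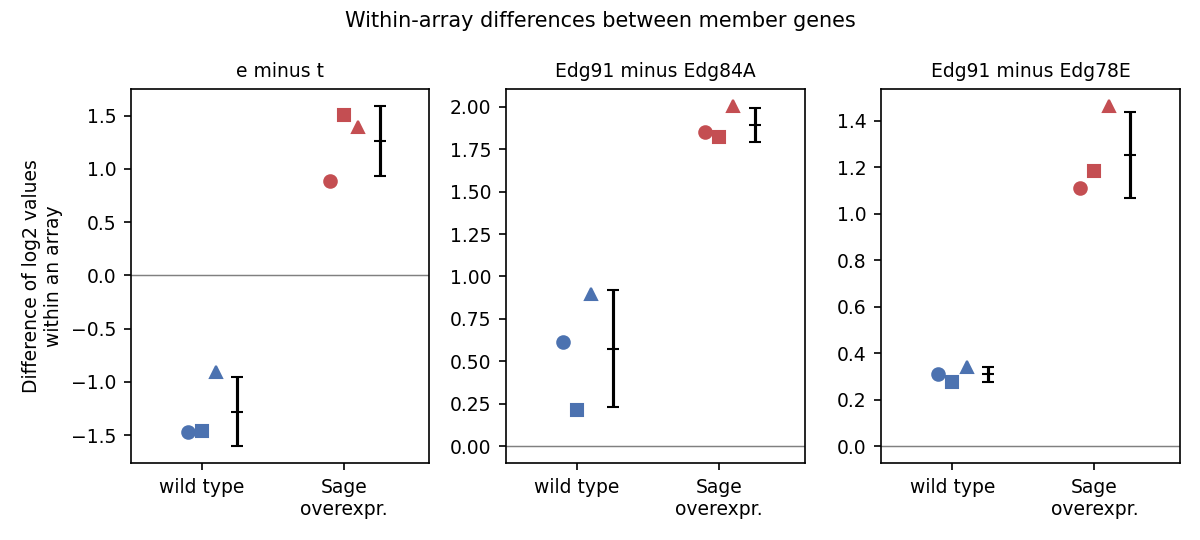
Difference between the log2 values of 2 genes within each array, for e minus t, Edg91 minus Edg84A and Edg91 minus Edg78E, with points for arrays and black bars for the mean and SD (n = 3). Only the shift between groups can be read, since values of different probe sets share no scale, and it is 2.54, 1.32 and 0.94. Edg84A lay in the background in both groups and Edg78E in wild type.

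The position of the Edg genes among other cuticle genes was compared with their values, using the gene order of the Release 6 assembly. The nearest measured neighbours of Edg78E were the cuticle genes Cpr78Cb and Cpr78Cc. Cpr78Cb had a log2 fold change of 1.41 (SE 0.37, limma adjusted p 0.082) and Cpr78Cc one of 0.63 (adjusted p 0.60). Edg84A lies beside Ccp84Ag, of the Ccp84A cuticle cluster, with 0.84 (SE 0.52, adjusted p 0.44), and its nearest measured gene on the other side, past 1 unmeasured gene, was the DNA repair gene agt, with -0.41 (adjusted p 0.13). Edg91 lies between CG14329 and CG34281, which read inside the background in both groups (log2 differences 0.04 and 0.17). No neighbour of an Edg gene passed the threshold.

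Of the 4 measured tanning enzymes of the set, t showed the largest difference. Its values were 7.57, 7.89 and 6.78 in wild type and 5.69, 5.72 and 5.85 in Sage overexpression (means 7.41 ± 0.57 and 5.75 ± 0.08, SD, n = 3). Every Sage array lay below every wild type array, and the wild type arrays were the more spread. The log2 fold change was -1.66 (SE 0.27), a 3.16-fold fall with a 95% interval of 2.01 to 4.95, and limma gave an adjusted p of 0.020. Of 541 lowered probe sets 46 fell by at least as much. By replicate number the differences were -1.88, -2.17 and -0.93. Omitting wild type array 1 ended the call (adjusted p 0.063), as did omitting Sage array 1, 2 or 3 (adjusted p 0.088, 0.092 and 0.094), while the fold change stayed between -1.97 and -1.42 in the fits that left out 1 array. Among 6 probe sets for 5′ ends of fly control transcripts the log2 differences reached -1.48, a value inside the 95% interval of t (-2.31 to -1.01). At the 3′ ends of actin, GAPDH and eIF-4a they were -0.09, -0.38 and -0.39, outside that interval. The part of RNA quality in the fall of t was not tested. Where the t probe set lies on its transcript was not used here.

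The ebony gene, e, differed the other way. It read 6.09, 6.42 and 5.88 in wild type and 6.58, 7.22 and 7.24 in Sage overexpression. The groups did not overlap, with Sage array 1 close to wild type array 2. The log2 fold change was 0.88 (SE 0.22, 95% interval 0.35 to 1.42), a 1.84-fold higher mean that missed the threshold (limma adjusted p 0.075). With the replicate block it passed (adjusted p 0.034), where 11.7% of all probe sets passed, and it passed without wild type array 2 (adjusted p 0.033). The other fits that left out 1 array gave limma adjusted p from 0.052 to 0.26, and quantile normalization gave 0.12. By replicate number the differences were 0.49, 0.80 and 1.36.

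Because e and t act in opposite directions on one conjugate, their difference within each array was also compared. The log2 value of e minus that of t was -1.47, -1.46 and -0.90 in wild type and 0.89, 1.51 and 1.39 in Sage overexpression. All 3 Sage arrays lay above all 3 wild type arrays. The shift was 2.54, so the ratio of e to t signal was 5.83-fold higher in the Sage samples. It restates the log2 fold changes of e (0.88) and t (-1.66), mostly the fall of t, and adds no support for either. Left-out arrays moved the shift between 2.42 and 2.73. An exact permutation test of this difference, two-sided, gave p = 0.1, the lowest that 3 arrays against 3 allow (0.1 after Benjamini-Hochberg adjustment over the 3 differences computed).

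Ddc, the dopamine-making step, had a higher mean but overlapping groups. It read 6.85, 6.27 and 6.80 in wild type and 6.78, 7.45 and 7.72 in Sage overexpression. Sage array 1 lay below wild type arrays 1 and 3, and Sage arrays 2 and 3 lay above all wild type arrays. The log2 fold change was 0.67 (SE 0.27), 1.6-fold with a 95% interval of 1.01 to 2.51, and did not pass (limma adjusted p 0.22, and 0.11 to 0.53 in the fits that left out 1 array). By replicate number the differences were -0.07, 1.18 and 0.91.

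The gene ple, for the step before Ddc, read 4.34, 4.38 and 4.4 in wild type and 4.69, 4.38 and 4.51 in Sage overexpression. All values were inside the background and the groups overlapped, so no fold is given. The log2 difference was 0.15 (95% interval -0.09 to 0.40, limma adjusted p 0.48).

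The regulator grh was measured by a pair of probe sets. On the brighter it read 10.48, 9.95 and 10.07 in wild type and 10.06, 10.05 and 10.18 in Sage overexpression. On the dimmer it read 6.0, 5.73 and 5.82 in wild type and 5.93, 5.55 and 5.88 in Sage overexpression. The groups overlapped on both. The log2 fold changes were -0.07 (95% interval -0.43 to 0.29, limma adjusted p 0.86) and -0.07 (95% interval -0.39 to 0.26, adjusted p 0.85), so a change beyond 1.34-fold in either direction lies outside both intervals.

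**Figure D3:**
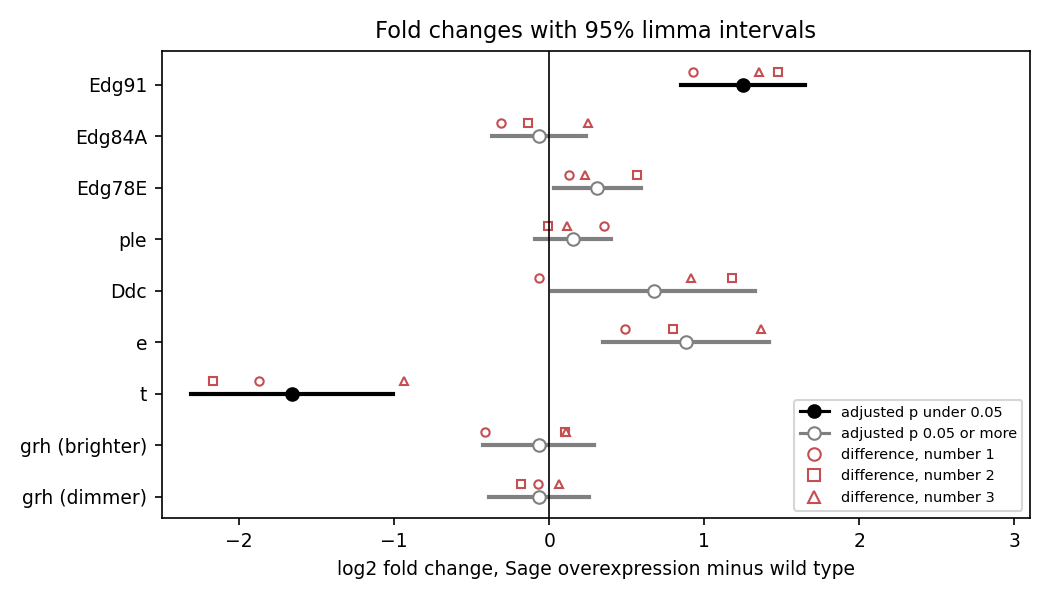
Log2 fold change of each member probe set with its 95% limma interval, filled where the adjusted p was under 0.05, with open red symbols for the difference between samples of the same replicate number. Edg91 lies at 1.25 and t at -1.66, with e at 0.88 and Ddc at 0.67 not past the threshold.

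The arrays within a group also differed in a shared way. Among wild type arrays, array 2 was the lowest for Edg91, Edg78E, Ddc and both grh probe sets and the highest for e, t and Edg84A. Among Sage arrays, array 1 was the lowest for Edg91, Edg84A, Edg78E, Ddc, e and t and the highest for ple and the dimmer grh probe set.

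Outside the cuticle cluster, the neighbours of the member genes were mostly below the threshold. The exception was CG5892 beside e, which went from 4.95, inside the background, to 5.98 (limma adjusted p 0.020), so no fold is given. The nearest measured gene on the other side of e, CG3337, with 2 unmeasured genes between, gave 0.13 (adjusted p 0.56). The neighbours of t, CG15369 and CG15370, gave 0.20 and -0.38 (adjusted p 0.80 and 0.44), and those of Ddc, CG10561 and Phb1, gave -0.02 and -0.29 (adjusted p 0.94 and 0.36).

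By Pearson correlation over the 6 arrays, the probe sets most like Edg91 were those of Pask, a PAS-domain kinase gene (r = 0.998), the cuticle gene Cpr67Fb (r = 0.998) and CG7203 (r = 0.996). Cpr67Fb read 6.54, 5.76 and 6.59 in wild type and 8.04, 8.46 and 8.83 in Sage overexpression, with the same order of arrays as Edg91. Those most like t were CG30431 (r = 0.998), Srx (r = 0.998) and CG4741 (r = 0.996). CG30431 read 7.09, 7.45 and 6.17 in wild type and 5.20, 5.13 and 5.29 in Sage overexpression. These correlations are a description of 6 arrays in 2 groups, chosen as the highest of 13647 probe sets with 1 gene each.

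In a wider list of tanning and melanin genes more rose than fell, and most rises were of yellow-family genes or of PPO1 and PPO2. The list was chosen with earlier results of these data known. Of 33 measured genes of tanning and melanin enzymes, taken without the members, 9 rose and 1 fell, where 4.31% of all genes rose and 3.49% fell by the same rule with 1 probe set per gene. The median log2 fold change was 0.11, against -0.0063 over all genes, and 24 of the 33 values were above 0. The yellow-family genes yellow-d, yellow-b and yellow-e gave the largest values. Some genes of the family encode enzymes that convert dopachrome in melanin synthesis. The family did not rise as a whole: yellow-e2 and yellow-e3 had log2 fold changes of -0.50 and -0.51 (limma adjusted p 0.14 and 0.55). The gene yellow-d read 6.88, 7.75 and 6.83 in wild type and 10.86, 11.37 and 11.01 in Sage overexpression, a 15.2-fold rise (limma adjusted p 0.0011). The genes yellow-b and yellow-e rose 2.23-fold (adjusted p 0.0028) and 2.03-fold (adjusted p 0.010). The call of yellow-b held whichever array was omitted, while yellow-e lost it without Sage array 1 or 3 (adjusted p up to 0.059).

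The fourth by size was amd, which is related to Ddc in sequence and makes a catecholamine aldehyde used in cuticle. It read 9.39, 9.68 and 9.83 in wild type and 10.54, 10.66 and 10.45 in Sage overexpression, a 1.89-fold rise with no overlap (limma adjusted p 0.014). The call was lost without Sage array 1, 2 or 3 (adjusted p up to 0.070). The gene pyd3, for the enzyme that makes beta-alanine from uracil breakdown, rose 1.76-fold (adjusted p 0.047) and passed in 1 of the 6 fits that left out 1 array. The 1 gene that fell was yellow-h, 1.64-fold (adjusted p 0.040), which passed in 2 of those 6 fits (adjusted p up to 0.176). None of the list fell under quantile normalization or under eBayes with trend and robust settings. Naming pyd3 and yellow-h followed a look at their values.

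The prophenoloxidase genes PPO1 and PPO2, whose products start melanin formation in the blood, rose 1.62-fold and 1.87-fold (limma adjusted p 0.0064 for each) and kept their calls whichever array was omitted. They are also crystal cell markers, and the third marker of that cell, the transcription factor gene lz, had group means of 3.88 and 3.72, inside the background. The mean of the 3 crystal cell markers ran from 8.17 to 8.39 over wild type arrays and from 8.68 to 8.81 over Sage arrays. With lz in the background, this mean restates the rises of PPO1 and PPO2 and is no separate reading of crystal cells.

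Other steps of the pathway did not pass. The cofactor genes Pu and pr, for making the tetrahydrobiopterin that tyrosine hydroxylase needs, had log2 fold changes of -0.52 and -0.46 (limma adjusted p 0.27 and 0.35). The laccase gene stw, for the oxidation step of tanning, gave 0.25 (SE 0.43, adjusted p 0.82), with wild type arrays from 8.46 to 10.16. The gene speck, for the acetyltransferase that competes with Ebony for dopamine, gave 0.33 (adjusted p 0.32). These 4 were picked for their steps in the pathway. The number of raised genes in the tanning and melanin list fell to 4, 5 and 4 without Sage array 1, 2 and 3, was 7 under quantile normalization and under median centring, and was 11 with the replicate block.

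**Figure D4:**
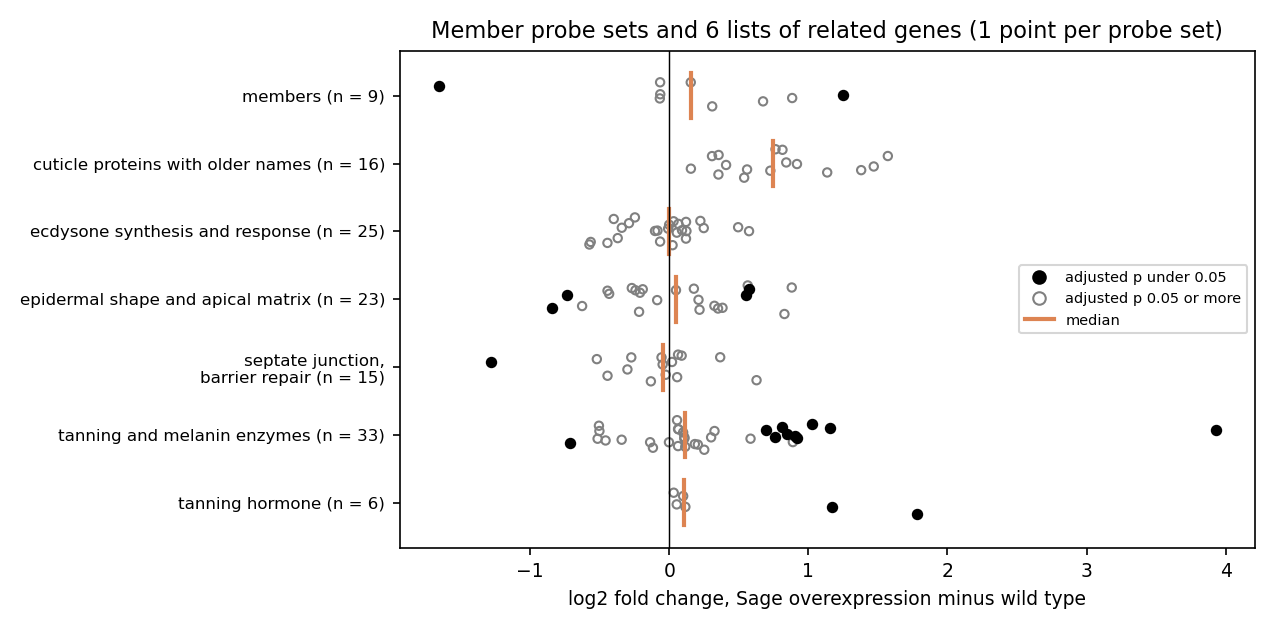
Log2 fold changes of the member probe sets and of the measured genes in 6 lists of related genes, filled where limma's adjusted p was under 0.05, with an orange bar at each median. The tanning and melanin list holds 9 filled points above 0 and 1 below, and the 16 cuticle protein genes all lie above 0 with none filled.

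Cuticle protein genes that keep older names gave higher means without passing. None of 16 measured genes passed in limma. Before adjustment 3 were higher and 0 lower at a p under 0.05, a mark that 21.1% of all probe sets reached. All 16 values were above 0 with a median log2 fold change of 0.75. Wild type array 2 read lowest of the wild type arrays for each of them and lowers the wild type means. Vajk3, picked to show this, read 9.15, 6.92 and 9.29 in wild type and 9.18, 8.97 and 9.51 in Sage overexpression. Such genes of one tissue and time vary together, and the mean of the list ran from 6.75 to 8.02 over wild type arrays and from 8.11 to 8.60 over Sage arrays. The smallest p was that of Ccp84Ae, from the cluster that holds Edg84A. It read 8.95, 7.38 and 8.70 in wild type and 9.50, 9.98 and 10.26 in Sage overexpression (log2 fold change 1.57, SE 0.43, adjusted p 0.090). With the replicate block 2 of the 16 rose, Ccp84Ae and Vajk1 (limma adjusted p 0.0495 and 0.044).

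Ecdysone is the hormone after which the Edg genes are named. Of its synthesis and response genes 25 were measured and none passed in limma, before adjustment 0 were higher and 5 lower at a p under 0.05, a share near the 21.1% of all probe sets, and the median log2 fold change was -0.0011. The smallest p was that of ImpL1, an ecdysone-inducible gene of imaginal discs, with group means of 13.51 and 12.95 (log2 fold change -0.57, SE 0.13, adjusted p 0.055). It passed in limma as lower under the replicate block (adjusted p 0.046) and with each array centred on its median (0.041). It also passed under eBayes with trend and robust settings (0.042), omitting wild type array 2 (0.014) and omitting both arrays numbered 2 (0.020). The call failed under quantile normalization (limma adjusted p 0.071), after dim probe sets were removed (0.062) and when each gene kept 1 probe set (0.054). Omitting any other single array gave limma adjusted p from 0.13 to 0.22. The FTZ-F1 gene, ftz-f1, named for its link to Edg84A, read 9.48, 8.80 and 10.13 in wild type and 9.54, 9.69 and 9.93 in Sage overexpression (log2 fold change 0.25, adjusted p 0.75).

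Of 6 measured hormone and receptor genes that time moulting and tanning, 2 rose and 0 fell, where 4.31% and 3.49% of all genes did. ETH, for the ecdysis-triggering hormone that starts moulting behaviour, read 6.06, 6.33 and 6.13 in wild type and 7.93, 7.84 and 8.10 in Sage overexpression, a 3.44-fold rise (limma adjusted p 8.2e-04) that held whichever array was omitted. Eh, for eclosion hormone, rose from 5.01, inside the background, to 6.18 (adjusted p 0.017), and lost its call without wild type array 1 or Sage array 3 (adjusted p up to 0.077). The rk gene, for the receptor of the tanning hormone bursicon, read inside the background in both groups (3.74 and 3.84), as did CCAP (4.94 and 5.06).

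Of 23 measured genes that shape the epidermal surface and its apical matrix 2 rose and 2 fell, where 4.31% and 3.49% of all genes did, with a median log2 fold change of 0.05. The zona pellucida domain gene dyl rose 1.49-fold (limma adjusted p 0.039) and the chitin deacetylase gene serp 1.46-fold (adjusted p 0.037). The Sox factor gene D fell 1.79-fold (adjusted p 0.037), and cyr, a further zona pellucida gene, 1.67-fold (adjusted p 0.011). The gene cyr passed in 5 of the 6 fits that left out 1 array, failing when Sage array 3 was omitted (adjusted p 0.054), while dyl and serp passed in 1 and D in 2. With the replicate block, which called 11.7% of all probe sets, 4 rose and 3 fell.

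Among 15 measured septate junction and barrier repair genes 0 rose and 1 fell, beside shares of 4.31% and 3.49% over all genes, with a median of -0.05. The 1 was nrv2, a sodium pump subunit gene also used by glia, which fell 2.43-fold (limma adjusted p 0.010) and lost its call when Sage array 3 was omitted (adjusted p 0.064). The replicate block gave 1 rise and 2 falls.

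Markers of the cells that could carry these RNAs were read beside them. All 4 measured epidermal markers, cora, shg, crb and ovo, had lower means in Sage overexpression, with a median log2 fold change of -0.37. Their mean ran from 9.05 to 9.70 over wild type arrays and from 8.90 to 9.05 over Sage arrays. None passed in limma. Before adjustment 0 were higher and 2 lower at a p under 0.05, a mark that 21.1% of all probe sets reached. The gene shg, for E-cadherin, fell with the replicate block (log2 fold change -0.58, adjusted p 0.033), which called 11.7% of all probe sets. The higher values of Edg91 and e stood beside lower means of these 4 markers, none past the threshold. The wider lists above, which also hold cora and ovo, were not lower as a whole. Their medians were 0.05 for epidermal shape (12 of 23 values above 0) and -0.05 for septate junctions (6 of 15 above 0). The part of epidermal cell number in the member values was not tested.

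Dopamine neurons use ple and Ddc too. Of 3 measured markers of dopamine and serotonin neurons none passed in limma. Before adjustment 1 was higher and 0 lower at a p under 0.05, which 21.1% of all probe sets reached. Their mean ran from 5.66 to 5.98 over wild type arrays and from 6.07 to 6.37 over Sage arrays. The dopamine transporter gene DAT had a log2 fold change of 0.69 (SE 0.16, adjusted p 0.059) and passed with the replicate block (adjusted p 0.033). Glia express e. None of 6 measured glial markers passed. Before adjustment 1 was higher and 1 lower at a p under 0.05, beside the same 21.1%. Their mean ran from 8.91 to 9.12 over wild type arrays and from 8.94 to 9.11 over Sage arrays. With the replicate block, which called 11.7% of all probe sets, moody rose and Gs2 fell (limma adjusted p 0.030 and 0.045). The part of these cells in the values of ple, Ddc and e was not tested.

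Markers that define other tissues of a whole embryo were above the background, apart from para of neurons and Fbp1 of fat body, which lay inside it in both groups, and Lsp2 of fat body, inside it in wild type. Means of the pan-neuronal markers ran from 6.42 to 6.90 in wild type and 6.69 to 7.10 in Sage overexpression, of tracheal markers from 9.17 to 9.50 and 9.31 to 9.39, and of somatic muscle markers from 10.44 to 11.25 and 11.17 to 11.30. Fat body markers ran from 5.61 to 5.97 and from 6.27 to 6.31. None of these passed in limma. Before adjustment 2 fat body markers were higher at a p under 0.05, which 21.1% of all probe sets reached, and no other marker was. The fat body marker FASN1 rose once the replicate block was included (limma adjusted p 0.026), as 11.7% of all probe sets passed with it. All 3 salivary gland markers, PH4alphaSG1, PH4alphaSG2 and Papss, rose, where 4.31% of all genes did, with a median log2 fold change of 1.45. They were chosen with earlier results of these data known, and the part of gland cell number in their values was not tested.

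**Figure D5:**
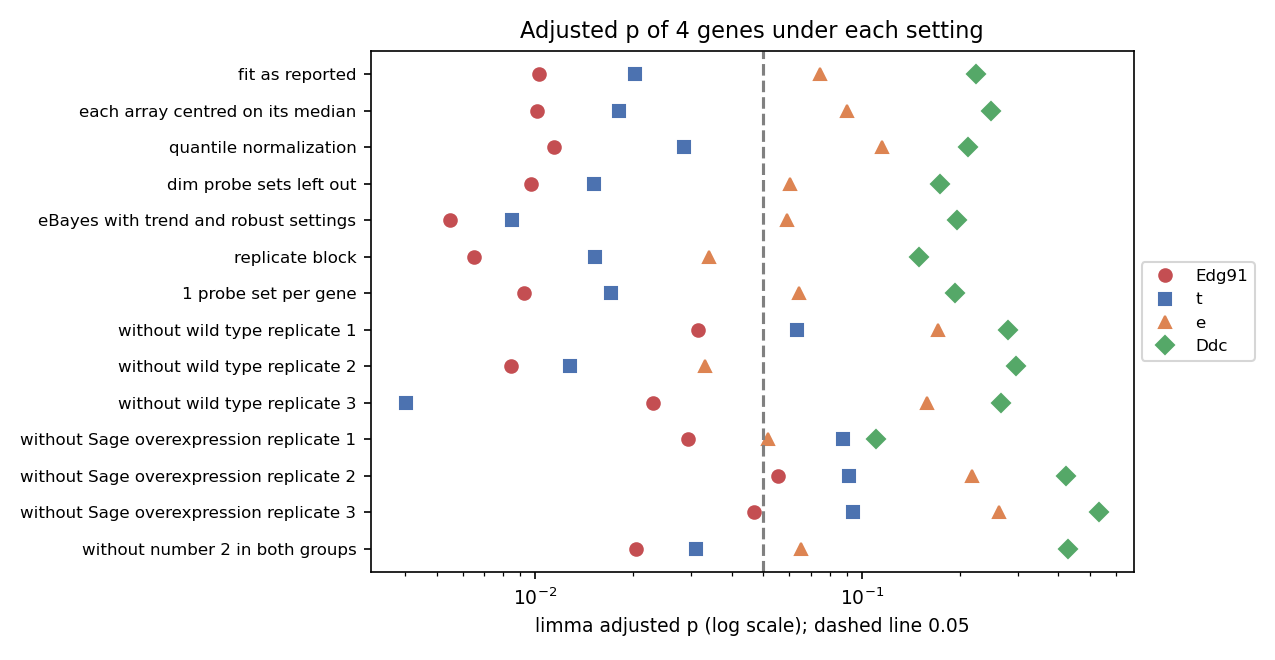
Limma adjusted p of Edg91, t, e and Ddc in the reported fit and 13 other settings, on a log axis with a dashed line at 0.05. Edg91 crosses the line in 1 setting and t in 4, e lies below it in 2, and Ddc lies above it in each setting shown.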

How the data were processed

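The authors deposited 1 value per probe set and array, named as RMA and Partek output in the submitters' processing notes, without versions or filters. These deposited numbers are treated as log2 values, since they run from 2.90 to 14.6 with nearly equal medians per array. The 183 Affymetrix controls were left out, so 18769 of 18952 probe sets were tested; 13647 of these have 1 gene in the platform annotation and 402 several. Members were matched by exact symbol; genes of the other lists were taken by their brightest probe set, some through a newer symbol. RefSeq's Release 6 table served for gene order only.

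The groups were compared with limma 3.58.1 in R 4.3.3 (lmFit, eBayes, two-sided, Benjamini-Hochberg over all 18769 probe sets, threshold 0.05). The procedure was run on simulated data with independent noise. Those data lack the differences between arrays that many genes share here, so error rates under such differences were not tested. Within-array differences were tested by exact permutation (SciPy 1.17.1). Members, lists, tests and alternatives were chosen with earlier results of these data known. The rule for named genes takes sage, all members, up to 4 genes past the threshold by size per list (or the smallest p), and the 3 probe sets most correlated with each changed member; others are said to be chosen otherwise or are neighbours, list markers or pathway steps.

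Both groups carry replicate numbers 1 to 3, with nothing said of what they share. Deviations from group means correlated at 0.39 for number 1, 0.67 for number 2 and 0.33 for number 3, and the numbers were taken as pairs. Wild type 3 with Sage 1 gave 0.43 and wild type 1 with Sage 3 gave 0.26, so these values set only number 2 apart. The labels do not give the pairs, which were read from the same values that the block fits. Calls made only with the block rest on this pairing. The fit as designed has no block; blocked values stand where they change a call. Each group's 3 arrays limit the precision. Alternatives were median centring, quantile normalization, leaving out dim probe sets, eBayes with trend and robust settings, the replicate block, 1 probe set per gene, a threshold of 0.01, leaving out each array, and leaving out both arrays numbered 2.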

Additional observations from a re-analysis of the deposited data

How the results depend on the processing

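The count of changed probe sets was 1149 as reported, 2191 with the replicate block, 349 at an adjusted p of 0.01, and 335 to 1857 when 1 array was left out. Members past the threshold numbered 2 as reported, 0 at an adjusted p of 0.01 and 0 to 3 when 1 array was left out. Other listed genes past the threshold numbered 17 as reported, 27 with the replicate block, 5 at 0.01 and 5 to 23 when 1 array was left out. Fits with fewer arrays have fewer degrees of freedom, and the cause of the other shifts was not tested. With the replicate block e passed too, and no other member call changed. At 0.01 both member calls were lost (adjusted p 0.010 for Edg91 and 0.020 for t). Signs turned only for members whose 95% interval spans 0: over the fits that left out 1 array Edg84A ranged from -0.149 to 0.033, the brighter grh probe set from -0.178 to 0.088 and the dimmer from -0.137 to 0.055. All 3 within-array differences kept their direction under quantile normalization and in each fit that left out 1 array, where the smallest possible p is 0.2. Values in the background range of the controls limit what can be seen of ple, Edg84A and Edg78E.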
